A study of Homo sapiens and Mus musculus with 16 samples.

Results

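The subject is a set of 10 genes of the Wnt pathway, followed in 2 tumour cell lines with and without PD-L1. They are the Wnt ligand genes WNT5A, WNT5B and WNT7B, the Dickkopf inhibitor genes DKK1, DKK2 and DKK3, the effector genes CTNNB1, TCF7L2 and LEF1, and the readout gene AXIN2. All 10 were found by symbol among the 58713 genes of the human table and, in mouse spelling, among the 53796 genes of the mouse table. The 10 genes were chosen by measured values, their FPKM differences between knockout and wild type in these libraries, so those differences are given for the members as a description, with standard errors and no p-value or call. The human cells were MDA-MB-231, a triple-negative breast cancer line, either wild type or PD-L1 KO, and the mouse cells were CT26, a colon carcinoma line, either wild type or Pd-l1 KO. Each of the 4 groups had 4 libraries of total RNA, 16 in all. The knockout was made by CRISPR delivered with a lentivirus. The sources used here do not say whether a pool or 1 clone of knockout cells was used, whether the wild type cells carried a control vector, or whether each library had its own culture. P-values given for other genes therefore cover the spread among these libraries alone, and that spread may be technical.

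Wnt ligands are secreted, lipid-modified proteins that bind Frizzled receptors. In the canonical branch, Frizzled and the co-receptors LRP5 and LRP6 stop a destruction complex built on AXIN, APC and GSK3 from degrading beta-catenin, the product of CTNNB1, which then acts in the nucleus with the DNA-binding factors TCF7L2 and LEF1. DKK1 and DKK2 bind LRP5 and LRP6 and block this branch, while DKK3 is a more distant relative whose link to Wnt signalling is less settled. AXIN2 is a feedback inhibitor that beta-catenin induces in many tissues and is widely read as a measure of the canonical branch. WNT5A and WNT5B are best known for signalling without beta-catenin through ROR receptors, and WNT7B mostly for the canonical branch.

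RefSeq promoter windows (GRCh38.p14) were at hand for 6 of the 10 human genes, CTNNB1, DKK1, LEF1, TCF7L2, WNT5A and WNT5B. Both strands of the 250 bases before each start were searched for CTTTGA, a core letter sequence of TCF and LEF binding sites, which reads TCAAAG on the other strand. Of 35116 windows of that length, 11.2% held it at least once and 0.977% held it 2 or more times. Among the 10 windows of the 6 members 1 held it. This was the DKK1 window, with matches that begin 149 and 95 bases before the start. A match is a description of letters, not of a bound site. The windows of 3 genes that were higher in the human knockout are printed, 5′ to 3′ on the strand of the gene, with matches in capitals. WNT5A has 2 starts. The windows are chr10:52314031-52314280 (+) for DKK1, chr4:108166302-108166551 (-) for LEF1, and chr3:55487307-55487556 (-) and chr3:55481399-55481648 (-) for the 2 starts of WNT5A.
DKK1: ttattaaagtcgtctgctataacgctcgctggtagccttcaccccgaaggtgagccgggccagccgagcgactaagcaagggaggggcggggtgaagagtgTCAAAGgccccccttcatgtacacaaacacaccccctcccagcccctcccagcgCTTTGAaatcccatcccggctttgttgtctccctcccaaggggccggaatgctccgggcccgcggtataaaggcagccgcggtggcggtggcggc
LEF1: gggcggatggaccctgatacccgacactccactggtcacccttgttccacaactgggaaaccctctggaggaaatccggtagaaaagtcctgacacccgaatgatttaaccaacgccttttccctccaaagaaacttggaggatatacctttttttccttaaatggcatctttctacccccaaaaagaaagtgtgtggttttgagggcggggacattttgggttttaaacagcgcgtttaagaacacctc
WNT5A, outer start: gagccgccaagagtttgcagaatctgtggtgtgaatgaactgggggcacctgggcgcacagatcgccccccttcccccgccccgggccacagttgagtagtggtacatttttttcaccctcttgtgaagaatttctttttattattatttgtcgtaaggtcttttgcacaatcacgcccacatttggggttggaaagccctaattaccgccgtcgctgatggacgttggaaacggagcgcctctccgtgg
WNT5A, inner start: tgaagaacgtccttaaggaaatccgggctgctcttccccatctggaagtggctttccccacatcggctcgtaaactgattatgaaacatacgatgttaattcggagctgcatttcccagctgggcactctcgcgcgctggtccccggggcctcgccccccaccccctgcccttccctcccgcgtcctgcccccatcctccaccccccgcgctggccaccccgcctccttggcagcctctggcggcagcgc

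Levels are in FPKM, read fragments scaled by transcript length and library size, so that genes of 1 line can be compared. The 2 tables were normalized apart, so no level was compared between lines. Absolute depth is unknown. Relative depth, read from the steps of the lowest values with the first wild type library of each line as 1, spanned 0.942 to 1.21 for wild type and 0.507 to 0.778 for knockout MDA-MB-231 libraries. For CT26 it spanned 0.799 to 1.14 and 0.927 to 2.49. CD274, the targeted gene, was at 12.2 ± 0.670 FPKM in the wild type and 10.6 ± 1.91 FPKM in the knockout (SD, n = 4 per group) in MDA-MB-231, which was 86.6% of the wild type mean with overlapping groups and was not called (limma adjusted p = 0.166). The MDA-MB-231 libraries are therefore called knockout by their label alone. In CT26 Cd274 fell from 1.41 ± 0.127 to 0.526 ± 0.0552 FPKM (limma adjusted p = 1.42e-04). Of 7 leukocyte markers in MDA-MB-231 CD3E was at 0, and PTPRC, the common leukocyte antigen gene, read 0.00968 to 0.715 FPKM in the wild type and 0 in the knockout. The 7 summed to 109 to 115 FPKM in wild type and 78.7 to 95.6 FPKM in knockout libraries, mostly CD68. CD68 was at 105 ± 3.74 and 85.9 ± 6.62 FPKM. CD14 fell from 2.69 ± 0.390 to 0.719 ± 0.256 FPKM and CSF1R from 4.32 ± 1.44 to 0.407 ± 0.270 FPKM. In CT26 Cd3e and Csf1r were at 0, and Ptprc was at 0 in the wild type and at most 0.0130 FPKM in the knockout. The sum of the 6 markers there was 20.6 to 24.95 and 53.9 to 59.2 FPKM, nearly all from Cd14 and Cd68. These went in opposite directions. Cd14 rose from 17.1 ± 1.35 to 53.6 ± 2.92 FPKM, and Cd68 fell from 5.30 ± 0.715 to 3.55 ± 0.775 FPKM. Of 8 epithelial markers Epcam, which defines most epithelial cells, was at 0 in all CT26 libraries and Cdh1 and Vil1 were at 0 in the wild type, while Krt18 was at 33.7 ± 0.796 FPKM. Of 3 breast receptor genes ESR1 and PGR did not exceed 0.130 FPKM in MDA-MB-231. The other, ERBB2, was at 24.6 ± 1.28 FPKM in the wild type and lower in the knockout, at 17.8 ± 3.19 FPKM (limma adjusted p = 0.00706). The summed level of 7 stromal markers was 4.22 to 7.31 and 2.30 to 5.18 FPKM in MDA-MB-231, and 250 to 253 and 294 to 312 FPKM in CT26. The CT26 sum was nearly all Col1a2, at 244 ± 1.46 FPKM in the wild type and 296 ± 8.62 FPKM in the knockout. Pdgfrb was at 6.95 ± 0.278 and 5.73 ± 0.461 FPKM there, and the remaining stromal markers did not exceed 0.254 FPKM in any CT26 library. The part of these markers in the results was not tested.

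In wild type MDA-MB-231 the most abundant of the 10 transcripts was the inhibitor DKK1, at 230 ± 17.2 FPKM, followed by CTNNB1 at 141 ± 6.98 FPKM. WNT7B (24.2 ± 1.19 FPKM) and TCF7L2 (20.6 ± 4.30 FPKM) came next and their ranges overlapped. WNT5B stood at 8.99 ± 0.357 FPKM. The ranges of AXIN2 (2.15 ± 0.415 FPKM), LEF1 (1.599 ± 0.645 FPKM) and DKK3 (1.20 ± 0.206 FPKM) overlapped from one to the next. WNT5A was at 0.0907 ± 0.0522 FPKM and DKK2 was listed at 0 in all 4 libraries. In the knockout DKK1 and CTNNB1 were again the highest, TCF7L2, WNT5B and LEF1 ranked above WNT7B, and AXIN2 was 9th.

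In the MDA-MB-231 knockout the mix of Wnt ligand transcripts was different from that of the wild type. WNT7B was lower, while WNT5A and WNT5B were higher, and in none of the 3 did the groups overlap. WNT7B (ENSG00000188064, hg38 chromosome 22, 45920362 to 45977129, minus strand) read 24.8, 22.7, 25.4 and 23.8 FPKM in the wild type and 5.97, 7.55, 6.22 and 5.67 FPKM in the knockout. The knockout mean was 26.3% of the wild type mean, and the log2 difference, taken on log2(FPKM + 1) here and throughout, was -1.78 (SE 0.0898). WNT5B (ENSG00000111186, chromosome 12, 1529891 to 1647243, plus strand) read 8.996, 8.85, 8.65 and 9.49 FPKM against 18.4, 15.4, 17.0 and 17.0 FPKM. This is 1.88 times the wild type mean, with a log2 difference of 0.84 (SE 0.0721). WNT5A (ENSG00000114251, chromosome 3, 55465715 to 55490539, minus strand) was near 0 in the wild type, at 0.141, 0.0401, 0.0516 and 0.130 FPKM, and at 1.93, 1.84, 2.65 and 2.68 FPKM in the knockout. Its log2 difference was 1.58 (SE 0.119). WNT7B was the most abundant of the 3 in the wild type and WNT5B in the knockout. The deposited table places WNT5A-AS1, which lies antisense to WNT5A, at the same locus, and its mean was 0.0376 FPKM in the wild type and 1.27 FPKM in the knockout. FBXL14 shares the locus of WNT5B and rose (limma adjusted p = 6.97e-05) from 3.17 ± 0.599 to 7.56 ± 0.791 FPKM. The sources used here do not say whether counting used strand, and overlap of exons was not examined. Whether reads of such partners were mixed is therefore unknown.

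**Figure D1:**
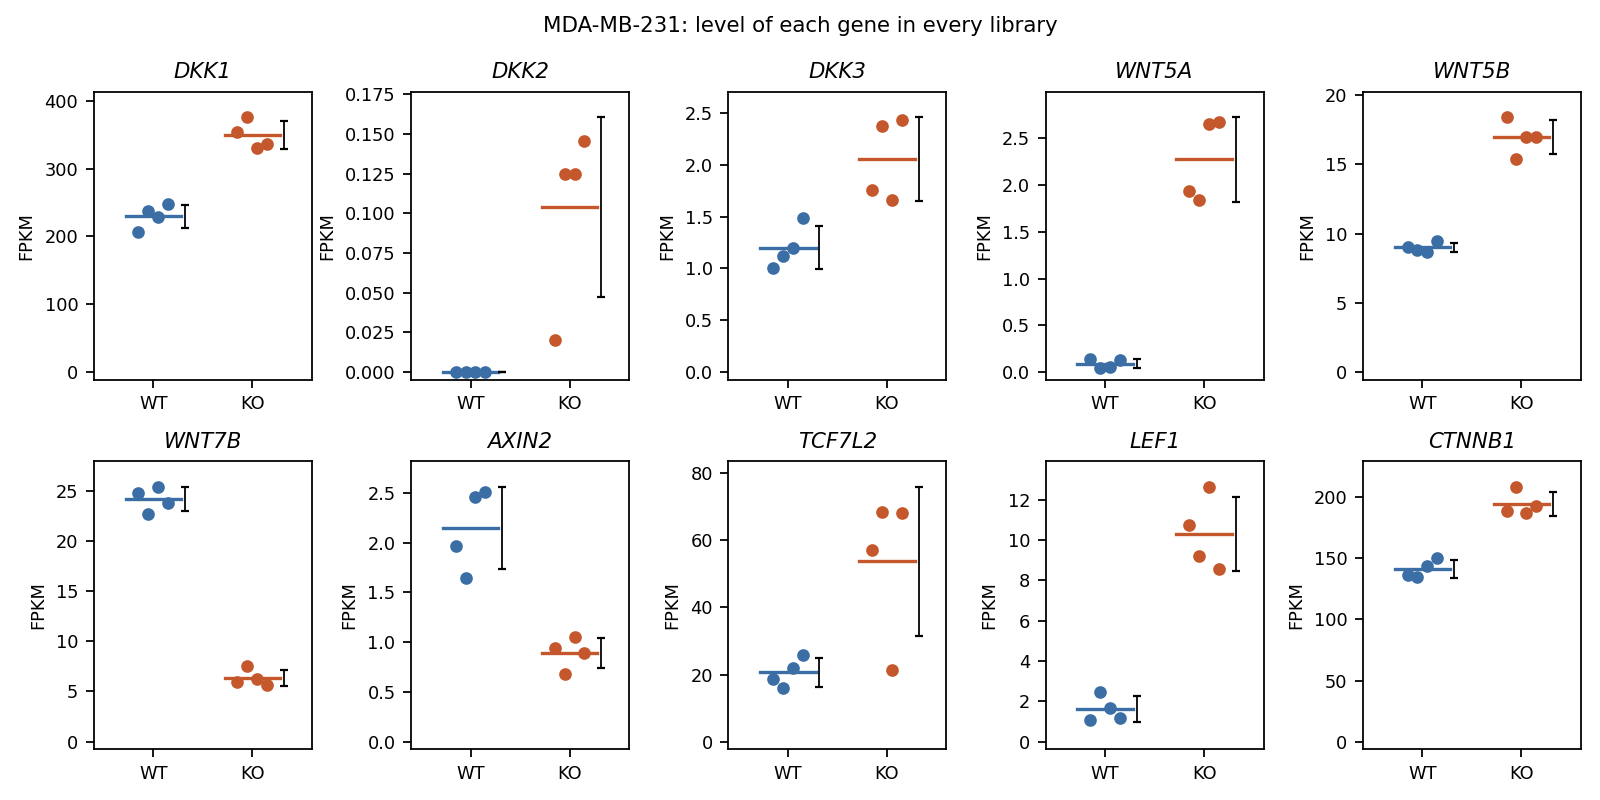
Level of each of the 10 genes in MDA-MB-231 in FPKM on a linear axis (y), in the 4 wild type (WT) and 4 knockout (KO) libraries (x). Points are libraries, horizontal lines group means and whiskers SD cut at 0. In TCF7L2 1 knockout library, at 21.3 FPKM, lies among the wild type values. Of the 9 tested members 6 are higher and 2 lower without overlap, against 62.7% of all genes tested without overlap in either direction. DKK2, near 0 in both groups, was not tested.

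DKK1 and DKK3 were higher in every knockout library of MDA-MB-231 than in any wild type library, and DKK2 was close to 0 in both groups. DKK1 (ENSG00000107984, chromosome 10, 52314296 to 52318042, plus strand) read 207, 237, 228 and 247 FPKM in the wild type and 354, 376, 330.0 and 336 FPKM in the knockout. The groups did not overlap, and the log2 difference was 0.60 (SE 0.0648), or 1.52 times the wild type mean. DKK3 (ENSG00000050165, chromosome 11, 11963106 to 12009769, minus strand) read 0.9998, 1.12, 1.20 and 1.48 FPKM against 1.76, 2.37, 1.66 and 2.43 FPKM. Its log2 difference was 0.47 (SE 0.125), with no overlap but a gap between groups smaller than the spread within the knockout. DKK2 (ENSG00000155011, chromosome 4, 106921802 to 107283806, minus strand) was listed at 0 in every wild type library and at 0.0199, 0.125, 0.125 and 0.146 FPKM in the knockout, too low to be tested. The deposited locus of DKK1 also covers CSTF2T and PRKG1-AS1, which rose (limma adjusted p = 3.02e-07 and 2.45e-05) from 6.76 ± 0.478 to 19.9 ± 0.828 FPKM and from 0.924 ± 0.180 to 2.93 ± 0.269 FPKM.

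Both DNA-binding factors and CTNNB1 were higher in the MDA-MB-231 knockout, while the readout AXIN2 was lower. LEF1 (ENSG00000138795, chromosome 4, 108047545 to 108168956, minus strand) read 1.07, 2.48, 1.67 and 1.17 FPKM in the wild type and 10.8, 9.19, 12.7 and 8.55 FPKM in the knockout. At 6.44 times the wild type mean and a log2 difference of 2.14 (SE 0.186), it had the largest difference on this scale of the 9 members that passed the filter. The rank depends on the scale: WNT5A was at 25.1 times its wild type mean, and with a pseudocount of 0.1 FPKM WNT5A (3.66) was above LEF1 (2.67), while with 5 FPKM WNT7B (-1.36) was farther from 0 than LEF1 (1.21). TCF7L2 (ENSG00000148737, chromosome 10, 112950250 to 113167678, plus strand) read 18.7, 15.9, 22.1 and 25.8 FPKM against 57.0, 68.4, 21.3 and 68.1 FPKM. Knockout replicate 3 lay inside the wild type range, the only overlap among the members that passed the filter, and the log2 difference of 1.23 (SE 0.353) was 1.62 without it. CTNNB1 (ENSG00000168036, chromosome 3, 41194741 to 41260096, plus strand) read 136, 135, 144 and 150.05 FPKM against 189, 209, 187 and 193 FPKM, a log2 difference of 0.46 (SE 0.0516). AXIN2 (ENSG00000168646, chromosome 17, 65528563 to 65561647, minus strand) read 1.96, 1.65, 2.46 and 2.51 FPKM against 0.937, 0.683, 1.05 and 0.895 FPKM. Its knockout mean was 41.6% of the wild type mean and its log2 difference -0.73 (SE 0.124), with no overlap. CEP112, which shares the deposited locus of AXIN2, fell from 8.60 ± 2.71 to 0.969 ± 0.609 FPKM (log2 fold change -2.28, limma adjusted p = 7.65e-05). Not all such partners moved with the member. ULK4, at the locus of CTNNB1, was not called (log2 fold change 0.10, limma adjusted p = 0.799). ATP6V0E1P2, also there, went from 1.39 ± 1.21 to 0 FPKM, and LEF1-AS1 from 0.105 ± 0.179 to 0.333 ± 0.353 FPKM, neither of them tested.

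Of the 10 members 9 passed the filter of 1 FPKM in at least 4 of 8 libraries in MDA-MB-231, WNT5A only through its knockout libraries. Over all 14450 genes tested in limma 68.2% passed the threshold of 0.05 on the adjusted p, 42.6% higher and 25.7% lower, and the median log2 difference was 0.18. Groups did not overlap in 6 higher and 2 lower of the 9, against 62.7% of all genes tested, 39.1% higher and 23.6% lower. Nothing is read from these counts, since the contrast was in view when the members were chosen. Upper-quartile scaling turned the 6149 higher and 3711 lower genes into 4736 and 4851 and the median into -0.01, and CTNNB1 then stood at 0.24 and DKK1 at 0.39.

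The median gene of the fixed 20 Mb window that holds DKK1, over 48 tested genes, was itself higher by 0.60, which left DKK1 at 0.00 relative to it. CTNNB1 stood 0.03 above the median of its window of 207 genes, which was at 0.43, and WNT5B 0.25 above its own, which was at 0.59. LEF1 (2.16), WNT5A (1.15), TCF7L2 (0.83), DKK3 (0.68), AXIN2 (-0.81) and WNT7B (-1.83) kept most of their difference, or had a larger one, relative to their windows.

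**Figure D2:**
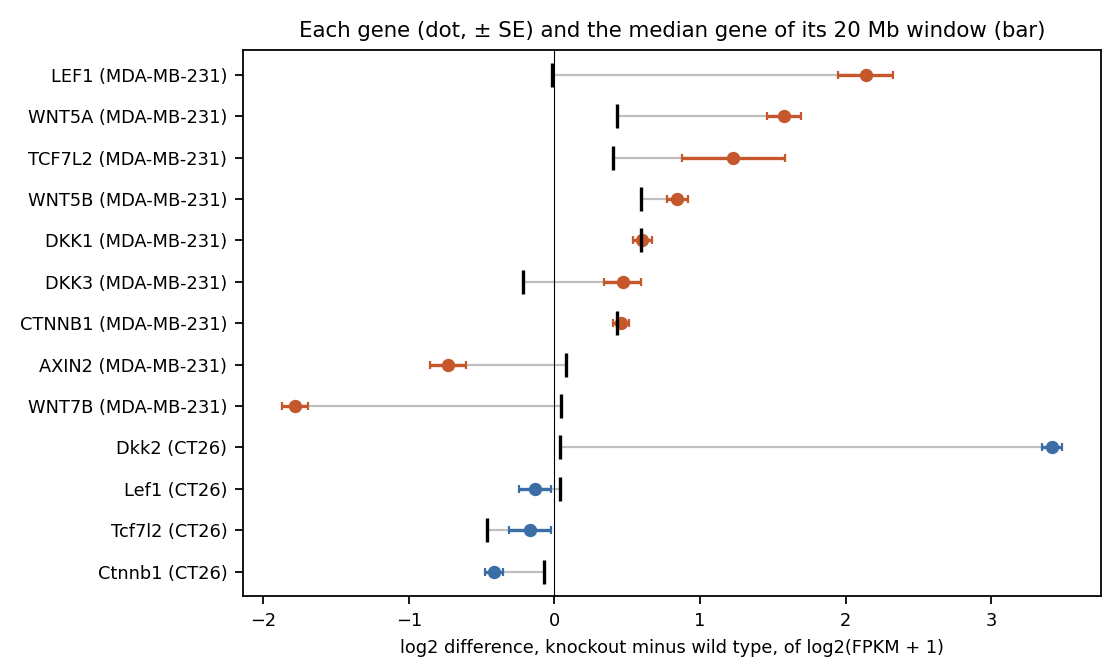
Log2 difference between knockout and wild type, on log2(FPKM + 1), of each tested member (dots, x, with SE as whiskers) and of the median tested gene in its 20 Mb window (vertical bars), with 1 member per row for MDA-MB-231 (orange) and CT26 (blue). DKK1 and CTNNB1 lie on their window medians, while LEF1, WNT7B and CT26 Dkk2 lie far from theirs.

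In CT26 the same genes presented another picture, with 1 large difference, in Dkk2, and most of the ligand and inhibitor genes at or near 0. Wild type CT26 had Ctnnb1 at 254 ± 13.2 FPKM, then Tcf7l2 (5.76 ± 0.138 FPKM) and Lef1 (5.48 ± 0.496 FPKM), whose ranges overlapped, then Axin2 at 0.595 ± 0.266 FPKM. Dkk2 and Wnt7b, with overlapping ranges, did not exceed 0.148 FPKM in any wild type library. Dkk1 and Wnt5a were listed at 0 in all 8 libraries, and Dkk3 and Wnt5b did not exceed 0.0442 and 0.0598 FPKM in any. Of the 10 members 4 passed the filter, Dkk2 only through its knockout libraries.

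Dkk2 (ENSMUSG00000028031, mm10 chromosome 3, 132085292 to 132180304) read 0.0908, 0.0379, 0.0265 and 0.148 FPKM in the CT26 wild type and 9.94, 10.3, 10.5 and 11.2 FPKM in the knockout. The 4 knockout values lay within a narrow band far above every wild type value. The log2 difference was 3.42 (SE 0.0680). Since the wild type values are close to the lowest the table holds, the size of this difference depends on the pseudocount. At a pseudocount of 0.1 FPKM it was 5.96 and at 5 FPKM 1.61. In the knockout Dkk2 was the second most abundant of the 10 transcripts, above Tcf7l2 and Lef1.

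The effector genes of CT26 differed little or in the direction opposite to MDA-MB-231. Ctnnb1 (ENSMUSG00000006932, mm10 chromosome 9) read 240, 247, 270.1 and 259 FPKM in the wild type and 192, 187, 211 and 173 FPKM in the knockout, without overlap. The log2 difference was -0.41 (SE 0.0622), which left 75.1% of the wild type mean. Lef1 read 5.02, 5.15, 6.11 and 5.62 FPKM against 4.96, 3.81, 5.73 and 5.21 FPKM, and its log2 difference of -0.14 (SE 0.109) lay within the overlap of the groups. Tcf7l2 read 5.596, 5.68, 5.85 and 5.89 FPKM against 4.58, 6.16, 6.22 and 3.53 FPKM, with a log2 difference of -0.17 (SE 0.145). Its knockout values spread on both sides of a tight wild type group, with a coefficient of variation of 25.5% against 2.40%. Axin2 did not reach the filter. It read 0.991, 0.504, 0.455 and 0.431 FPKM against 0.536, 0.446, 1.04 and 0.405 FPKM, so that 1 library of each group stood near 1 FPKM and the other 3 near 0.5 FPKM. Wnt7b read 0.0458, 0.0681, 0.111 and 0.0559 FPKM against 0.0277 FPKM in 1 knockout library and 0 in the other 3, levels too low to be tested.

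**Figure D3:**
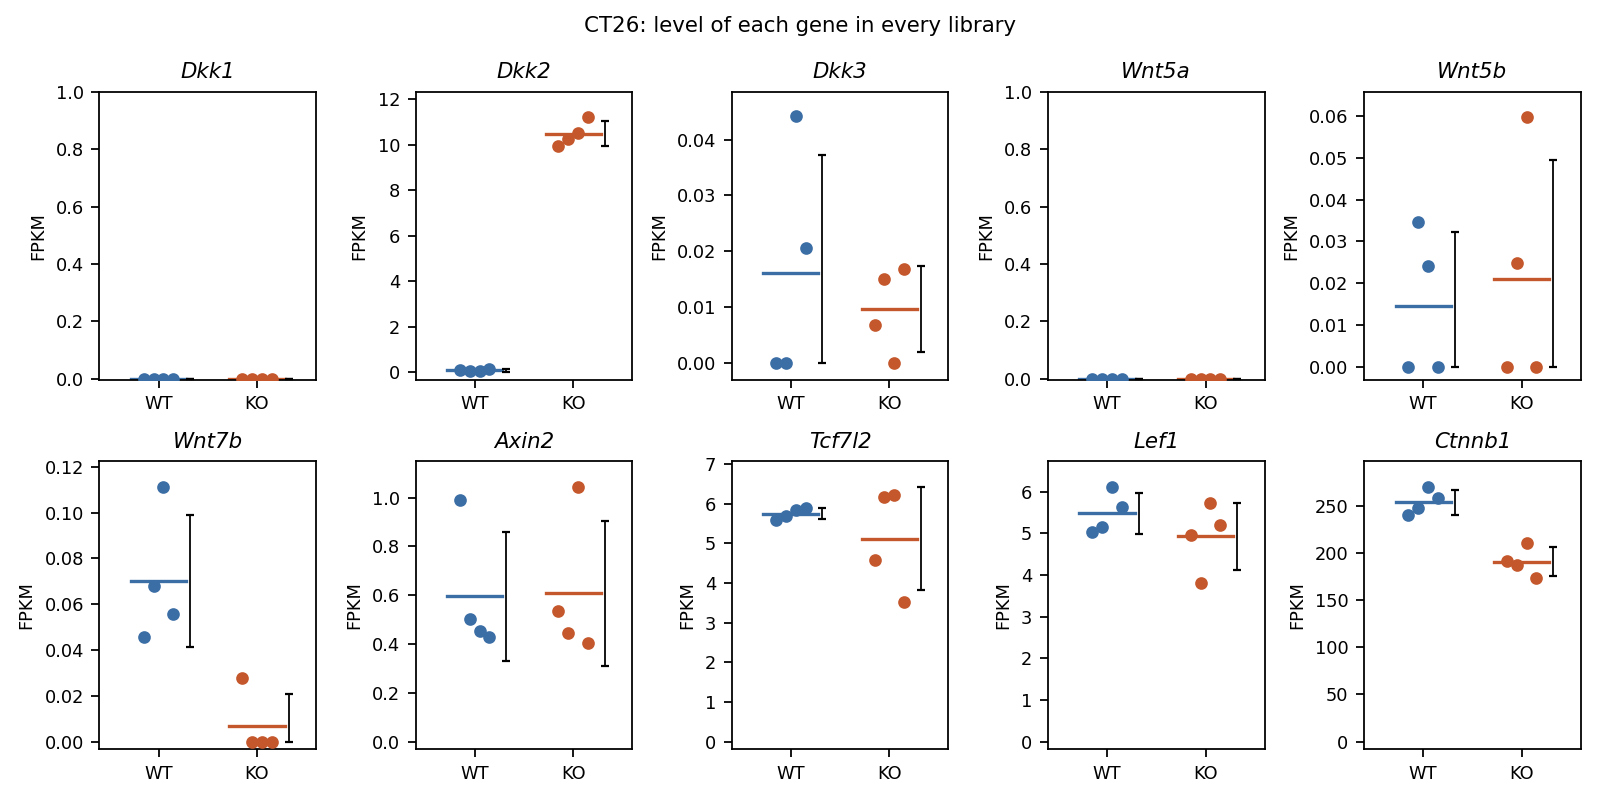
Level of each of the 10 genes in CT26 in FPKM on a linear axis (y), in the 4 wild type (WT) and 4 knockout (KO) libraries (x); points are libraries, horizontal lines group means and whiskers SD cut at 0. Dkk2 is at 9.94 to 11.2 FPKM in the knockout and at most 0.148 FPKM in the wild type, Ctnnb1 is lower without overlap, and Dkk1 and Wnt5a are at 0 throughout.

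Of the 4 members of CT26 that passed the filter 1 was higher and 1 lower without overlap, as were 51.5% of 11342 genes tested, 20.3% higher and 31.1% lower. In limma 55.8% of these genes were called, 22.3% higher and 33.5% lower. Nothing is read from the members' count here either. The median log2 difference over all genes was -0.06. With upper-quartile scaling the 2534 higher and 3794 lower genes became 3316 and 2840, and Ctnnb1 stood at -0.32. Relative to the median of its 20 Mb window Dkk2 was at 3.38 and Ctnnb1 at -0.34. Tcf7l2 turned from -0.17 to 0.29, since the window median was -0.46.

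DKK2 and LEF1 are neighbours in both genomes, with 746 kb between their deposited loci on human chromosome 4 and 861 kb on mouse chromosome 3. LEF1 was at 2.14 in MDA-MB-231 and Dkk2 at 3.42 in CT26, and the other tested genes nearby lay closer to 0. In MDA-MB-231 the 10 other tested genes within 1 Mb of the pair lay between -0.71 and 0.45, with 2 higher and 4 lower in limma. Between DKK2 and LEF1 lie PAPSS1, CYP2U1, SGMS2 and HADH, of which the lipid enzyme genes CYP2U1 (-0.71) and SGMS2 (-0.61) and the fatty acid oxidation gene HADH (-0.21) fell. In CT26 the 12 other tested genes lay between -0.64 and 0.64, with 3 higher and 2 lower. There Papss1 (0.03), Sgms2 (-0.01) and Cyp2u1 (0.19) were not called and Hadh fell, by 0.18 on the log2 scale.

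**Figure D4:**
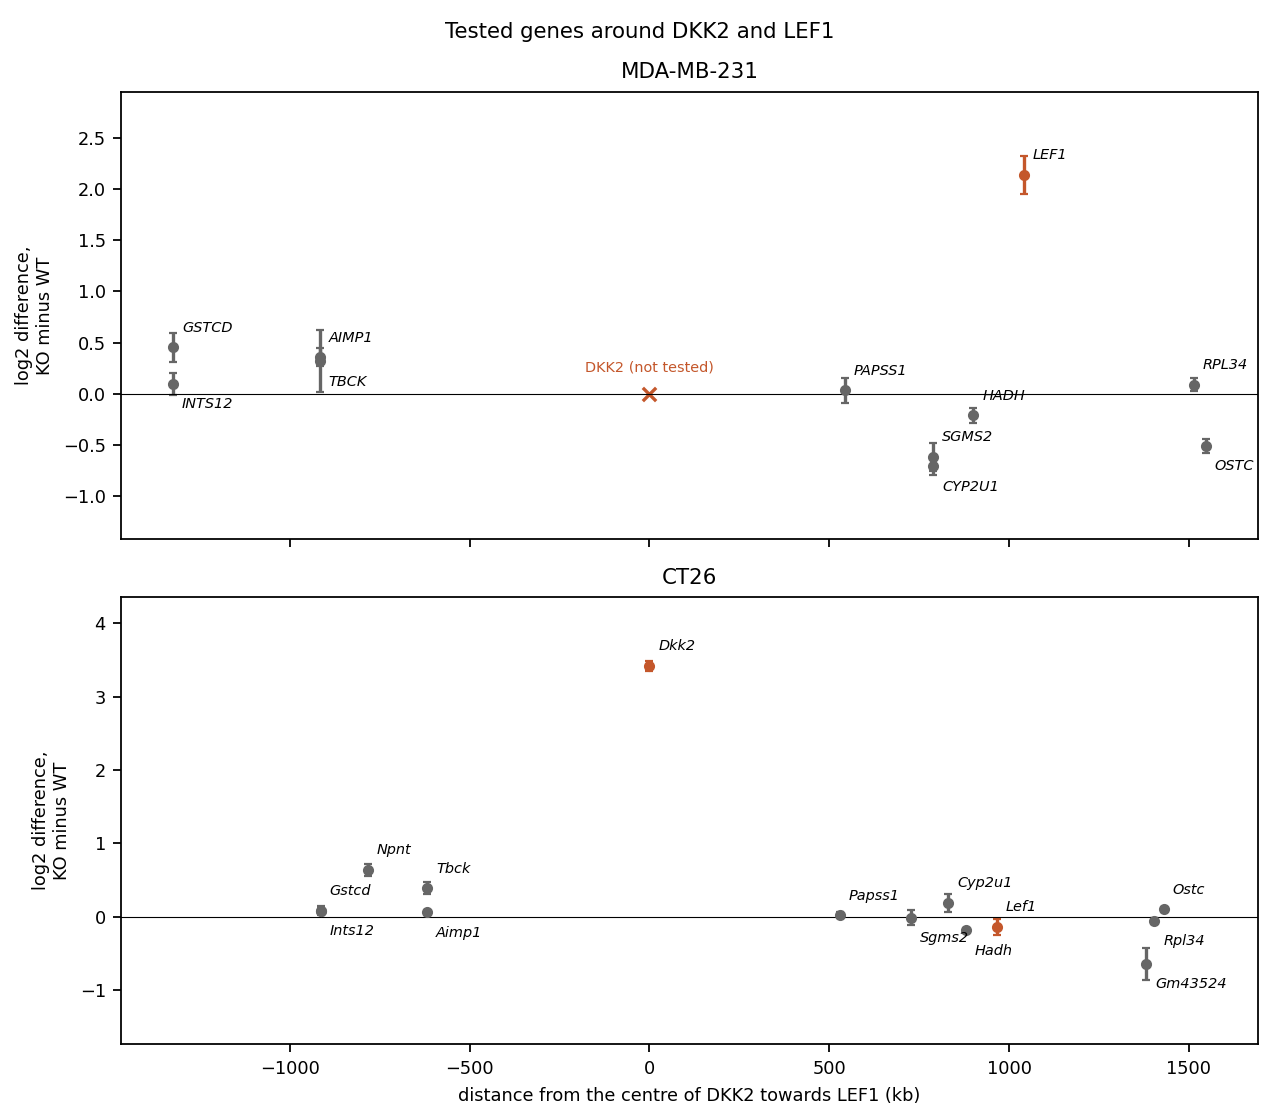
Log2 difference between knockout and wild type on log2(FPKM + 1) (y, with SE as whiskers) of tested genes within 1 Mb of the DKK2 and LEF1 pair, against distance in kb from the centre of DKK2 towards LEF1 (x), in MDA-MB-231 (top) and CT26 (bottom). LEF1 stands alone at 2.14 in the human line, where the untested DKK2 is marked by a cross without a value, and Dkk2 alone at 3.42 in the mouse line.

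The tested genes with profiles most like LEF1 over the 8 MDA-MB-231 libraries, by Euclidean distance of log2(FPKM + 1) relative to the wild type mean, were LINC00601 (distance 0.43), CDYL2 (0.55), NMD3 (0.56), GPHN (0.59) and C16orf74 (0.59). For Dkk2 in CT26 they were Dsg4 (0.38) and Fos (0.56), followed at a larger distance by Nrp1 (1.43), Platr14 (1.46) and Hbb-bh1 (1.73). Dsg4, a desmoglein gene, went from 0.0184 ± 0.0281 to 8.72 ± 0.268 FPKM, and Fos, an immediate early transcription factor gene, from 0.576 ± 0.174 to 14.3 ± 2.59 FPKM. LEF1 and Dkk2 were picked by their knockout difference, so nearness here mainly means a knockout difference of like size. The log2 differences were 2.04 to 2.26 for the genes near LEF1 and 2.58 to 3.27 for those near Dkk2. Dkk2 passed the filter only through its knockout libraries. Whether these genes vary together apart from the knockout contrast was not tested.

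The other genes of the pathway were described by 8 lists with 141 genes. In MDA-MB-231, 89 were tested, of which 36 rose, 28 fell and 25 were not called, so 71.9% changed against 68.2% of all genes tested. In CT26, 75 were tested, of which 19 rose, 30 fell and 26 were not called, or 65.3% against 55.8%. Each list median is to be read beside that of all tested genes, 0.18 in the human and -0.06 in the mouse line. List counts are likewise to be read beside the shares of all tested genes. These were 42.6% higher and 25.7% lower in the human line, and 22.3% higher and 33.5% lower in the mouse line. The lists were chosen with earlier results of these data known, and no list was tested.

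Among the other ligands and the genes that process ligands, WNT9A and PORCN fell and WLS rose in MDA-MB-231, 3 of the 4 tested (median -0.75). WNT9A went from 3.61 ± 0.370 to 0.0439 ± 0.0221 FPKM (log2 fold change -2.14, SE 0.0928, limma adjusted p = 1.46e-07). PORCN, the enzyme that attaches the lipid to Wnt proteins, fell from 57.3 ± 3.82 to 17.4 ± 2.42 FPKM, and WLS, which carries Wnt proteins to the surface, rose from 34.5 ± 5.34 to 65.97 ± 11.1 FPKM. In CT26 Wnt10a rose from 3.66 ± 1.17 to 6.57 ± 0.477 FPKM. Wnt10b fell from 3.12 ± 0.531 to 1.96 ± 0.258 FPKM, Porcn from 8.59 ± 0.421 to 6.70 ± 0.550 FPKM and Wls from 52.1 ± 1.74 to 44.7 ± 1.76 FPKM. Relative to windows 2 ligand genes of CT26 rose and 1 fell in place of 1 and 3. Porcn was then higher, at 0.54, and Wls (-0.03, limma adjusted p = 0.537) was not called. Of 15 other secreted antagonists and their partners 2 were tested in each line. IGFBP4, a growth factor binding protein that also inhibits Wnt receptors, rose from 615 ± 9.31 to 919 ± 25.3 FPKM in MDA-MB-231. In CT26 Igfbp4 fell from 89.4 ± 3.33 to 57.9 ± 4.44 FPKM. Kremen1, a co-receptor of Dickkopf proteins, fell from 11.6 ± 0.785 to 6.28 ± 0.153 FPKM in CT26, and KREMEN1 was not called in MDA-MB-231 (log2 fold change -0.02).

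Receptor genes went in both directions in MDA-MB-231, where 6 of 13 tested rose and 4 fell (median 0.18). ROR1, a receptor of WNT5A, fell from 13.6 ± 0.724 to 2.96 ± 0.490 FPKM (log2 fold change -1.89, SE 0.102, limma adjusted p = 5.29e-07), and FZD7 from 23.8 ± 0.731 to 7.70 ± 0.384 FPKM. FZD2 rose from 15.5 ± 1.17 to 45.7 ± 1.11 FPKM and FZD8 from 0.674 ± 0.130 to 3.36 ± 0.152 FPKM. In CT26 2 of 9 rose and 5 fell (median -0.21), and relative to 20 Mb windows 2 rose and 2 fell. Fzd7 fell from 8.30 ± 0.304 to 4.31 ± 0.180 FPKM and Fzd2 from 8.40 ± 0.244 to 6.03 ± 0.320 FPKM. Lrp5 rose from 3.77 ± 0.214 to 6.29 ± 0.270 FPKM, and Fzd5 fell from 1.30 ± 0.140 to 0.691 ± 0.0994 FPKM. Relative to its window Fzd5 was at 0.01.

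In the R-spondin system, which sets how many Frizzled receptors stay on the surface, RNF43, a ligase that removes them and a known target of beta-catenin, fell from 2.67 ± 0.469 to 0.0153 ± 0.0180 FPKM in MDA-MB-231 (log2 fold change -1.85, SE 0.111, limma adjusted p = 9.95e-07). Its relative ZNRF3 rose from 1.76 ± 0.204 to 3.60 ± 0.448 FPKM. LGR4, an R-spondin receptor gene, went from 17.8 ± 1.49 to 14.2 ± 2.65 FPKM with limma adjusted p = 0.0452, a call lost with no filter (limma adjusted p = 0.0855) and on leaving out any 1 library other than knockout replicate 3 (0.0507 to 0.112). In CT26 Znrf3 fell from 3.41 ± 0.222 to 2.15 ± 0.143 FPKM and Lgr4 from 3.03 ± 0.280 to 2.41 ± 0.0693 FPKM. Relative to its window the call of Lgr4 was lost (limma adjusted p = 0.220), as it was with no filter (0.0714) and after upper-quartile scaling (0.0550).

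Genes of the relay and the destruction complex rose in 11 of 19 and fell in 3 in MDA-MB-231 (median 0.41), and rose in 3 of 16 and fell in 9 in CT26 (median -0.20). After upper-quartile scaling the counts were 9 and 4 in MDA-MB-231 and 5 and 6 in CT26. After quantile normalization 5 fell in MDA-MB-231, and relative to windows 4 fell in CT26. GSK3B, a kinase that marks beta-catenin for degradation, rose from 12.1 ± 2.70 to 24.9 ± 2.83 FPKM in MDA-MB-231 and Gsk3b fell from 17.95 ± 2.65 to 13.0 ± 0.936 FPKM in CT26. FRAT2, a GSK3-binding protein gene, rose from 2.84 ± 0.201 to 11.02 ± 0.937 FPKM and DVL1, which relays the Frizzled signal, fell from 84.7 ± 6.18 to 32.6 ± 2.55 FPKM in MDA-MB-231. TNKS2, a tankyrase gene whose product destabilizes AXIN, rose from 6.58 ± 0.517 to 13.7 ± 0.572 FPKM. In CT26 Axin1, the scaffold of the destruction complex, fell from 79.1 ± 5.99 to 51.6 ± 3.73 FPKM and Amer1, a membrane partner of the complex, from 2.21 ± 0.300 to 1.003 ± 0.0435 FPKM. Tnks2 fell there from 48.7 ± 6.54 to 34.8 ± 2.55 FPKM, and relative to its window it was not called (limma adjusted p = 0.129).

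Nuclear factors rose in 4 of 17 and fell in 4 in MDA-MB-231 (median -0.04; 7 fell after quantile normalization), and rose in 4 of 17 and fell in 5 in CT26 (median -0.08). CTNNBIP1, which blocks binding of beta-catenin to TCF factors, fell from 31.6 ± 1.06 to 15.2 ± 3.90 FPKM in MDA-MB-231. CTNNBL1 rose from 48.4 ± 1.62 to 92.4 ± 9.44 FPKM, CDC73 from 18.3 ± 2.43 to 31.8 ± 4.66 FPKM and TBL1X from 10.8 ± 0.848 to 18.4 ± 1.18 FPKM. In CT26 the co-repressor gene Tle3 rose from 12.04 ± 2.12 to 20.1 ± 2.28 FPKM and the chromatin remodeller gene Chd8 from 22.6 ± 3.11 to 33.0 ± 2.62 FPKM. Tbl1xr1 rose from 15.03 ± 3.58 to 22.3 ± 3.08 FPKM (limma adjusted p = 0.0225), a call lost with no filter (limma adjusted p = 0.0566) and without knockout replicate 3 (0.0516) or 4 (0.0599). Cdc73 fell from 28.9 ± 1.997 to 20.2 ± 1.22 FPKM. Relative to its window it was at 0.00 by construction, since it was itself the median gene there. Chd8 was not called relative to its own window (limma adjusted p = 0.0741).

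Other genes known as targets of beta-catenin fell in 6 of 11 and rose in 1 in MDA-MB-231 (median -0.24), and rose in 6 of 10 and fell in 1 in CT26 (median 0.17). Over all genes tested 25.7% fell and 42.6% rose in MDA-MB-231, and 22.3% rose and 33.5% fell in CT26. Whether the output of the pathway differed was not tested. With a mean of at least 5 FPKM required 3 fell in MDA-MB-231, and without knockout replicate 2 the number that fell in CT26 was 2. Most of them also respond to other signals. CD44, a hyaluronan receptor gene, fell from 1093 ± 48.3 to 321 ± 12.1 FPKM in MDA-MB-231 (log2 fold change -1.76, SE 0.0446, limma adjusted p = 7.47e-09). The ephrin receptor gene EPHB2 fell from 42.6 ± 2.57 to 12.8 ± 0.796 FPKM, TNFRSF19 from 1.76 ± 0.151 to 0.143 ± 0.0449 FPKM and BAMBI, a decoy receptor gene of the TGF-beta pathway, from 5.17 ± 0.428 to 1.65 ± 0.240 FPKM. In CT26 Sox4, a transcription factor gene, rose from 2.06 ± 0.138 to 7.53 ± 0.200 FPKM (log2 fold change 1.48, SE 0.0560, limma adjusted p = 4.59e-07). Myc rose from 74.5 ± 2.02 to 96.8 ± 4.21 FPKM and Sox9 from 0.974 ± 0.0683 to 1.42 ± 0.0992 FPKM. Tcf4, which encodes an E protein and not TCF7L2, fell from 29.3 ± 2.49 to 20.7 ± 0.341 FPKM, though relative to its window it was at 0.04.

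In the polarity and calcium arm, through which WNT5A and WNT5B act, 11 of 20 rose and 7 fell in MDA-MB-231 (median 0.32), and 3 of 14 rose and 3 fell in CT26 (median -0.02). Relative to windows 7 rose in MDA-MB-231, and 3 fell there with a mean of at least 5 FPKM required. In CT26 5 rose after upper-quartile scaling, and 5 fell without wild type replicate 4. DAAM1, a formin that links Dishevelled to RHOA, fell from 23.3 ± 4.02 to 5.54 ± 1.59 FPKM and the polarity gene PRICKLE2 from 5.03 ± 0.340 to 1.35 ± 0.332 FPKM. NLK, a kinase that acts on TCF factors, rose from 6.11 ± 1.33 to 18.9 ± 2.08 FPKM and MAPK8, which encodes the kinase JNK1, from 33.5 ± 2.502 to 94.1 ± 6.63 FPKM. In CT26 Rac1 fell from 438 ± 20.1 to 336 ± 6.47 FPKM and Nfatc1, a calcium-responsive transcription factor gene, from 7.68 ± 0.337 to 4.93 ± 0.202 FPKM. Mapk8 rose from 18.7 ± 0.712 to 23.7 ± 3.16 FPKM and Camk2g from 24.3 ± 2.73 to 30.9 ± 2.03 FPKM. Relative to their windows Nfatc1, Mapk8 and Camk2g were not called, with limma adjusted p = 0.266, 0.679 and 0.503.

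**Figure D5:**
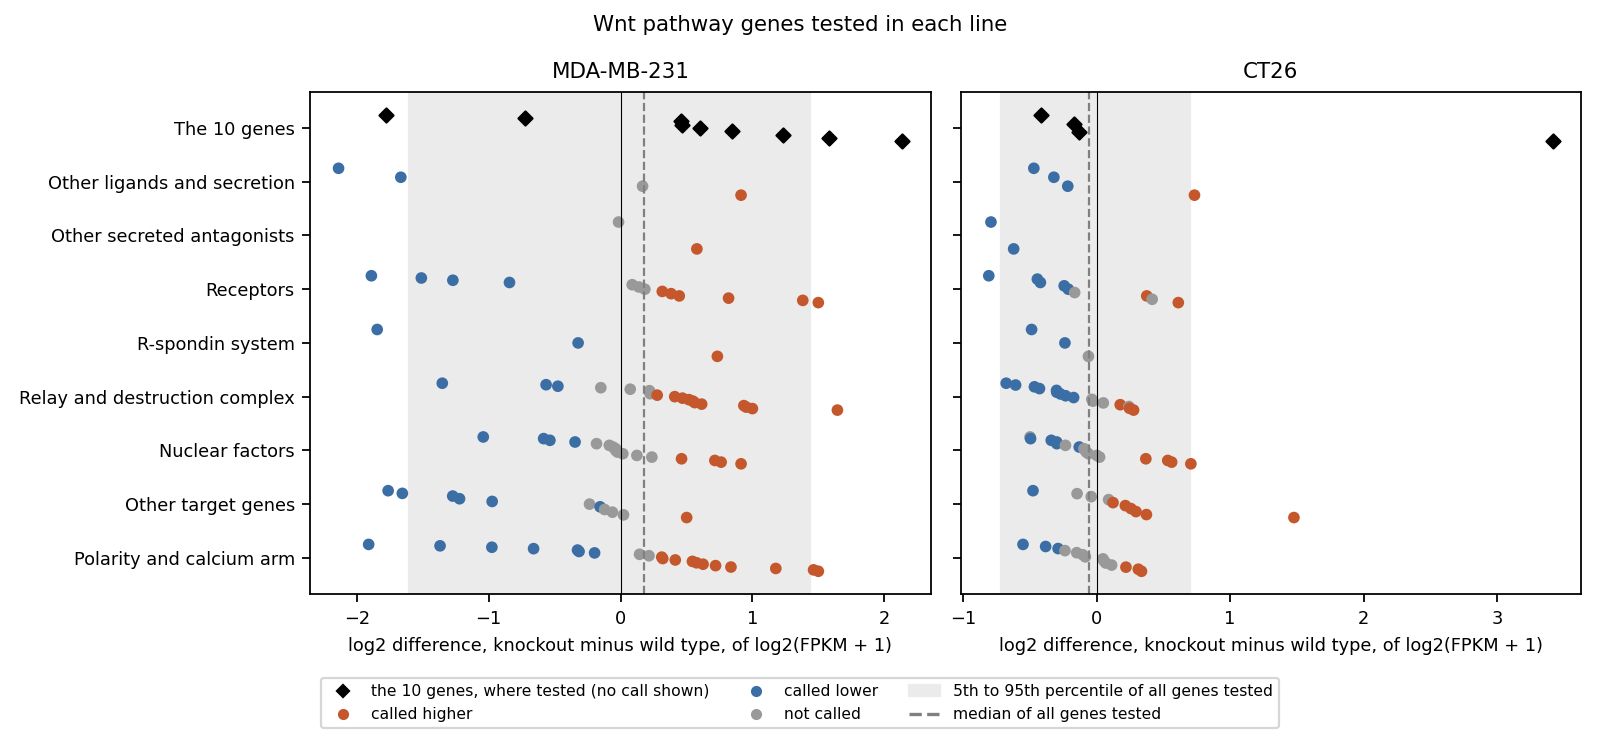
Log2 difference between knockout and wild type on log2(FPKM + 1) (x) of each tested gene, by list (y), in MDA-MB-231 (left) and CT26 (right); black diamonds are the tested members of the 10-gene set, orange and blue dots genes called higher and lower in limma, grey dots genes not called, and the shaded band and dashed line the 5th to 95th percentile and the median of all genes tested. LEF1 and WNT5A lie above and WNT7B below the band in MDA-MB-231, and Dkk2 lies far above it in CT26.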

How the data were processed

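The submitters' processing notes name bcl2fastq 2.18, STAR 2.5.4a, Cufflinks 2.2.1 and Cuffdiff, and the builds hg38 and mm10. The sources used here do not give the annotation release, the use of strand or other settings. The authors deposited, per line, an FPKM value for each gene and library. Overlapping genes share 1 deposited locus, and locus starts were raised by 1 to count from 1. Human gene positions were taken from GENCODE 29, in which the 10 members lie inside their deposited loci.

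Values were analysed as log2(FPKM + 1), which understates changes of low genes. Genes at 1 FPKM or more in at least 4 of 8 libraries entered limma 3.58.1 (R 4.3.3) with a trend, group being the sole term. Tests were two-sided, p-values were adjusted by Benjamini-Hochberg across every gene tested, and the threshold was 0.05. The fit was tested on simulated data. The members and lists were chosen with earlier results of these data known. The named genes were the members, the targeted gene, up to 4 called genes per list and line with the largest change and a mean of 1 FPKM or more in the higher group, and the 5 genes nearest to the member with the largest difference in each line. Marker genes, neighbours of DKK2 and LEF1 and genes sharing a locus were named outside this rule, after values were seen. Window medians used fixed 20 Mb windows with at least 10 tested genes, and each gene counted in the median of its own window. Alternatives were other pseudocounts, filters and scalings, window centring, a replicate block and leaving out each library. Python 3.11.15, pandas 2.3.3, numpy 2.4.6 and matplotlib 3.10.9 were used. The level of 1 leukocyte marker is not reported here.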

Additional observations from a re-analysis of the deposited data

Results flagged for a closer look

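In a few of the 150 groups of 4 examined, 1 library stood apart from the other 3, which chance produces in about 1 in 20 groups. Wild type replicate 1 of CT26 read 0.991 FPKM for Axin2, against 0.431 to 0.504 FPKM in the other wild type libraries. Among the other pathway genes 1 CT26 wild type library read 58.4 FPKM for Tnks2 (others 44.1 to 46.5) and 1 read 2.33 FPKM for Wnt10b (others 3.29 to 3.47). A CT26 knockout library read 103 FPKM for Myc (others 94.2 to 95.2), and an MDA-MB-231 knockout library 38.8 FPKM for CDC73 (others 28.97 to 30.1).

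For some genes all knockout libraries lay on one side of the wild type in MDA-MB-231 and on the other side in CT26. Groups did not overlap for 62.7% of human and 51.5% of mouse genes that passed the filter. How many of all genes lay on opposite sides was not counted. Besides CTNNB1, the values below are limited to pathway genes named above. Unnamed pathway genes such as DVL2 (0.55 in the human and -0.23 in the mouse line), RYK (0.82 and -0.21), GSK3A, CSNK1A1, CSNK1G1 and BTRC did the same. The difference between lines was not tested, since the tables were normalized apart. Of the members only CTNNB1, TCF7L2 and LEF1 passed the filter in both lines. Among them CTNNB1 alone lay on opposite sides, at 0.46 in MDA-MB-231 and -0.41 in CT26, a difference of 0.87. Relative to windows CTNNB1 was at 0.03 in MDA-MB-231 and -0.34 in CT26. The human minus mouse difference of the log2 changes was 1.92 for FZD2, 1.79 for NLK, 1.43 for GSK3B, 1.42 for TNKS2, 1.26 for CDC73, 1.22 for ZNRF3, 1.20 for IGFBP4, 1.13 for WLS and 0.84 for TBL1X, all higher in the human and lower in the mouse knockout. It was -1.88 for LRP5, -1.63 for DVL1, -1.29 for TLE3 and -0.53 for MYC, which were lower in the human and higher in the mouse knockout. Relative to windows Wls, Tnks2 and Cdc73 of CT26 were not called.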

How the results depend on the processing

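Of the members that passed the filter Tcf7l2 of CT26 changed sign, at 0.29 relative to windows, and no other did under the alternatives run. Abundant members moved with the scaling: relative to windows DKK1 was at 0.00 and CTNNB1 at 0.03, and after quantile normalization they were at 0.36 and 0.19. Low members moved with the pseudocount: at 0.1 and 5 FPKM WNT5A was at 3.66 and 0.51, LEF1 at 2.67 and 1.21, AXIN2 at -1.17 and -0.28, and DKK3 at 0.72 and 0.18. The count of other pathway genes that fell moved from 28 to 17 in MDA-MB-231 with a mean of at least 5 FPKM required, where fewer genes were tested, and from 30 to 17 in CT26 relative to 20 Mb windows. Relative to windows Fzd5 (0.015), Tcf4 (0.036) and Porcn (0.54) of CT26 changed sign, and Cdc73, itself the median gene of its window, was at 0. Porcn alone was called in the new direction (limma adjusted p = 2.4e-04). Deviations of wild type and knockout libraries with the same replicate number correlated at -0.04 to 0.00 in MDA-MB-231, so the numbers showed no pairing there. In CT26 they correlated at 0.03 to 0.08, and each wild type library correlated best with its own number. A weak pairing by number in CT26 was not tested. With the replicate block 6026 genes were higher and 3622 lower in the human line, 2391 and 3641 in the mouse line. For the other pathway genes the block gave 36 and 25, then 20 and 27. Leaving out 1 library gave 36 to 39 higher and 24 to 27 lower pathway genes in the human line, and 16 to 18 and 27 to 31 in the mouse line. Depth limits the lowest values, such as those of DKK2 in MDA-MB-231, which did not exceed 0.146 FPKM.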

Other observations

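TCF4, an E protein gene in the target list that did not reach the filter in MDA-MB-231, read 0.773, 0.468, 14.5 and 0.473 FPKM in the knockout and 0.0124 to 0.128 FPKM in the wild type. The high value is in knockout replicate 3, the library in which TCF7L2 was at 21.3 FPKM and the other knockout libraries at 57.0 to 68.4 FPKM. TCF4 was singled out after its values were seen, and no test was made of the pair.

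Of 8 epithelial markers in CT26 2 were tested. Krt20, a keratin gene of differentiated intestinal cells, rose from 1.78 ± 0.0650 FPKM to 10.4 ± 0.730 FPKM (limma adjusted p = 1.73e-07), and Krt18 was not called (log2 fold change -0.09, limma adjusted p = 0.145). Cdx2, an intestinal transcription factor gene, was at 0.0415 ± 0.0164 and 0.930 ± 0.0795 FPKM, too low to be tested, and Epcam, Cdh1, Vil1, Krt8 and Krt19 were at or near 0 in both groups. In MDA-MB-231 the epithelial markers EPCAM, CDH1, KRT8, KRT18 and KRT19 fell, CDH1 from 4.15 ± 2.53 to 0.311 ± 0.516 FPKM. The mesenchymal markers went both ways: VIM (log2 fold change 1.19) and ZEB1 (1.16) rose, CD44 (-1.76), SNAI2 (-1.06) and FN1 (-0.78) fell, and CDH2 was too low to be tested.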
